A study of Rattus norvegicus with 4 samples.

Results

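The genes described here are 5 enzymes that process amino acids and aldehydes in liver: Got1, Agxt, Fah, Aldh1a1 and Aldh2. They comprise every probe whose platform annotation gives exactly 1 gene symbol and that symbol is 1 of the 5, which gave 8 of the 1936 probes and 5 of the 958 named genes. Got1, Fah and Aldh1a1 had 1 probe each, Agxt had 2 (probes 214 and 1284) and Aldh2 had 3 (probes 665, 1293 and 1759). Liver mRNA of male Sprague-Dawley rats was examined 1 h after the common bile duct, which carries bile from liver to gut, had been tied off, or 1 h after a sham operation in which the duct was laid open and left untied. RNA of the right lateral lobe was pooled from groups of 3 rats and hybridised on 4 two-colour cDNA arrays, each holding a ligated and a sham sample. On arrays 1 and 3 the ligated sample was labelled with Cy5, and on arrays 2 and 4 with Cy3. Nothing in the labels says that the arrays held separate pools, so the spread between them may be technical. In whole liver, fewer cells of a type and less RNA per cell cannot be told apart.

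Amino acid nitrogen is handled in hepatocytes by aminotransferases, which pass an amino group from an amino acid to a keto acid. The carbon skeletons then enter the citric acid cycle or glucose synthesis. Aldehydes formed from alcohol, lipid peroxides and retinol are oxidised to acids by the aldehyde dehydrogenases, whose isoforms sit in the cytosol and in mitochondria. Both kinds of reaction are prominent in hepatocytes.

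The values are log ratios with an unstated base, and a fold is given below only with base 2 assumed. A positive value was read as higher after ligation. That direction is likely, since every label lists the ligated sample as the channel after sham, but it is not stated, and every sign below would turn if the ratio ran the other way. On this reading Nr0b2, whose product, a nuclear receptor, restrains the synthesis of bile acids, had deposited values between 0.94 and 1.27 at both its probes on all 4 arrays. The deposited array medians were -0.88, 0.75, -0.73 and 0.87, so most probes split by dye. Log ratios hold no level, so the tissue label could not be checked against marker levels. Of 13 probes of 6 hepatocyte marker genes none passed the test described below, and their estimates ran from -0.24 to 0.07. With the dye curve per block, a processing also described below, 2 of the 13 passed in opposite directions, Cyp2e1 probe 1234 higher (0.15 ± 0.04, limma adjusted p = 0.0341) and Ttr lower (-0.17 ± 0.04, limma adjusted p = 0.0265). The other Cyp2e1 probes ran from -0.06 to 0.10 in that fit, and none of them passed.

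Got1 and Aldh1a1 passed the test described below as higher after ligation, and Agxt, Fah and Aldh2 did not pass it. Both calls ended under several other ways of processing, which are also given below. Promoter sequences are shown for Got1 and Aldh1a1, so that they can be set side by side. They are the RefSeq windows of the GRCr8 assembly, from 250 bases before to 50 bases after the start site, 5′ to 3′ on the gene's strand. Capitals mark CCAAT on either strand, a short element that the transcription factor NF-Y binds.
Got1, chr1:252329822-252330121, minus strand: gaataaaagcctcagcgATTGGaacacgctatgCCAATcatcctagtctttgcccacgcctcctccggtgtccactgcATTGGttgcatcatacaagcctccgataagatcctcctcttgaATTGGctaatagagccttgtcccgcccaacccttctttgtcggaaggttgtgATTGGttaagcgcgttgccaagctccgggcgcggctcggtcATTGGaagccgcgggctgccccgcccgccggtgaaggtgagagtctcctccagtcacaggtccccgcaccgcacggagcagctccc
Aldh1a1, chr1:227537370-227537669, plus strand: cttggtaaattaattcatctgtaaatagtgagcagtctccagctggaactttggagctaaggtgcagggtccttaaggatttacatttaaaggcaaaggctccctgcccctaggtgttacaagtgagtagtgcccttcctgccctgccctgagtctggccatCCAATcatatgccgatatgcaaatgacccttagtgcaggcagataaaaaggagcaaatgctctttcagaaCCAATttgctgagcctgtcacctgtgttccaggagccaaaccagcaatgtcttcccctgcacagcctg

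The Got1 window held 6 matches to CCAAT, 1 of them on the gene's own strand, at positions from -233 to -36 relative to the start site. The Aldh1a1 window held 2, both on its own strand, at -88 and -18. Of all 33469 windows in the table, 37.5% held at least 1 match, 11.2% at least 2 and 0.0418% (14 windows) at least 6. Promoters of 4 of the 5 genes matched by gene ID, all but Aldh2, with 5 windows because Agxt has a pair of start sites. The Agxt windows held 0 and 1 matches and the Fah window 0. CCGCCC, searched on both strands, had 2 matches in Got1, 5 in Fah and 0 in Aldh1a1 and Agxt, against 33.1% of all windows with at least 1. The other elements, searched in the same way, had no match in these windows. The TATA box motif TATAAA occurred in 14.2% of all windows. The nuclear receptor element AGGTCA occurred in 16.2%, and the AP-1 element TGANTCA in 7.33%. Base composition also differed, with 58.7% G and C in Got1, 48.3% in Aldh1a1 and 65.3% in Fah, and a median of 51.7% over all windows. The matches are letters in a window and do not show that a factor was bound.

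The median of each array was subtracted, and limma was used to fit operation and dye effects to all 1936 probes. The operation estimate is the mean log ratio with the dye effect balanced. Over all probes 5.73% passed a Benjamini-Hochberg adjusted p of 0.05, with 0.930% higher and 4.80% lower after ligation. Many of the lower probes lay in the run of probe numbers from 243 to 484, where array 2 was low for many genes. No member probe lies in that run, so the 4.80% is not an even share over the array. Among the 8 member probes 2 were higher and 0 lower, and 6 did not pass.

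Got1 encodes the cytosolic aspartate aminotransferase, which interconverts aspartate and glutamate and serves the malate-aspartate shuttle. Its deposited values were -0.05, 0.90, -0.40 and 1.35 on arrays 1 to 4. Both Cy5-ligated arrays lay below 0 and both Cy3-ligated arrays above, as the array medians did. After centring the values were 0.83, 0.15, 0.33 and 0.48, above 0 on every array, which 1.50% of all probes shared. The estimate was 0.45 ± 0.09 (SE, n = 4 arrays; limma adjusted p = 0.000215), or 1.36-fold if the base is 2, and ranked 8th highest of the 1936 probes. The SE of the model draws mainly on the spread pooled over probes. The spread of Got1 alone about its own fit was 0.30 (residual SD, 2 residual degrees of freedom), larger than the 0.13 of the median probe and exceeded by 7.18% of probes. From that spread alone the SE would be 0.15.

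Each Cy5-ligated array can be averaged with each Cy3-ligated array, which balances the dye in 4 overlapping pairs. For Got1 these means were 0.49 for arrays 1 and 2, 0.24 for arrays 3 and 2, 0.65 for arrays 1 and 4 and 0.40 for arrays 3 and 4. All 4 were above 0, as for 11.6% of all probes. The call ended without array 1, where the estimate was 0.32 ± 0.14 (limma adjusted p = 0.476). It also ended as deposited without centring, where the estimate hardly moved (0.45 ± 0.10, limma adjusted p = 0.300) and 0.155% of probes passed, with quantile normalization (limma adjusted p = 0.133) and with a dye curve per array (0.419).

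Aldh1a1 encodes the cytosolic aldehyde dehydrogenase that turns retinal into retinoic acid. Its deposited values were -0.21, 0.87, 0.22 and 0.56, above 0 on 3 of 4 arrays and below 0 on array 1. Array 3 was the exception to the split by dye, with a value above 0 where the array median was -0.73. Many probes with nearby numbers were also higher on array 3 than on array 1. Slc22a5 probe 9 had -1.31 on array 1 and -0.38 on array 3, while Sgk1 probe 1 went the other way (-0.17 and -0.51). After centring the Aldh1a1 values were 0.67, 0.12, 0.95 and -0.31, so array 4 lay below 0. The estimate was 0.36 ± 0.09 (SE, n = 4 arrays; limma adjusted p = 0.00397), 1.28-fold if the base is 2, and ranked 13th highest. The residual SD of the probe alone was 0.26, exceeded by 9.04% of probes, and would give an SE of 0.13.

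The 4 dye-balanced means of Aldh1a1 ran from 0.18 (arrays 1 and 4) to 0.53 (arrays 3 and 2), all above 0. Its call ended without array 1, 2 or 3, though without array 1 the estimate was larger than with all arrays. These fits give all probes the same SE, 0.14 without array 1 or 3 and 0.09 without array 2 or 4. Without array 1 the estimate was 0.43 ± 0.14 (limma adjusted p = 0.162), without array 2 it was 0.25 ± 0.09 (0.104), and without array 3 it was 0.28 ± 0.14 (0.999). Without array 4 it was 0.46 ± 0.09 and passed (limma adjusted p = 1.8e-06). As deposited, without centring, it did not pass (0.36 ± 0.10, limma adjusted p = 0.399), nor with quantile normalization (0.220) or a dye curve per array (0.355). A cDNA probe can also bind mRNA of a close paralog, such as rat Aldh1a7, and the values do not separate them.

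Aldh2 encodes the mitochondrial aldehyde dehydrogenase, which oxidises acetaldehyde and aldehydes from lipid peroxidation. Probe 665 had deposited values of -0.17, -0.11, -0.07 and -0.11. Probe 1759 had -0.05, -0.24, -0.14 and -0.16, and probe 1293 had 0.01, -0.44, -0.10 and -0.32. Of these 12 values 11 lay below 0, and the exception was 0.01 for probe 1293 on array 1. Probes 665 and 1759 were thus below 0 on all 4 arrays as deposited, as 5.94% of probes were. The probes share an mRNA and their arrays, so the 12 values are not independent.

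The estimates for Aldh2 were -0.12 ± 0.08, -0.22 ± 0.08 and -0.15 ± 0.08 at probes 665, 1293 and 1759, and none passed (limma adjusted p = 0.651, 0.131 and 0.431). With base 2 assumed these are 0.921-fold, 0.860-fold and 0.899-fold. All 4 dye-balanced means were below 0 at each of the 3 probes, between -0.28 and -0.08, as they were for 26.1% of all probes. The residual SD of probe 665 was 0.065, and 87.1% of probes had a larger one. Averaged over its probes, Aldh2 had -0.16 ± 0.07 and did not pass (limma adjusted p = 0.272), where 4.18% of the 958 genes passed. After a smooth dye curve was taken out of each array within 16 equal blocks of consecutive probe numbers, probes 1293 and 1759 passed as lower. Their estimates were then -0.14 ± 0.04 each (both limma adjusted p = 0.0481), with 3.46% of probes lower and 3.51% higher in that fit, while probe 665 had -0.09 ± 0.03 (limma adjusted p = 0.160). The direction was the same with and without the curve, and the smaller SE there went with a smaller spread over all probes.

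**Figure D1:**
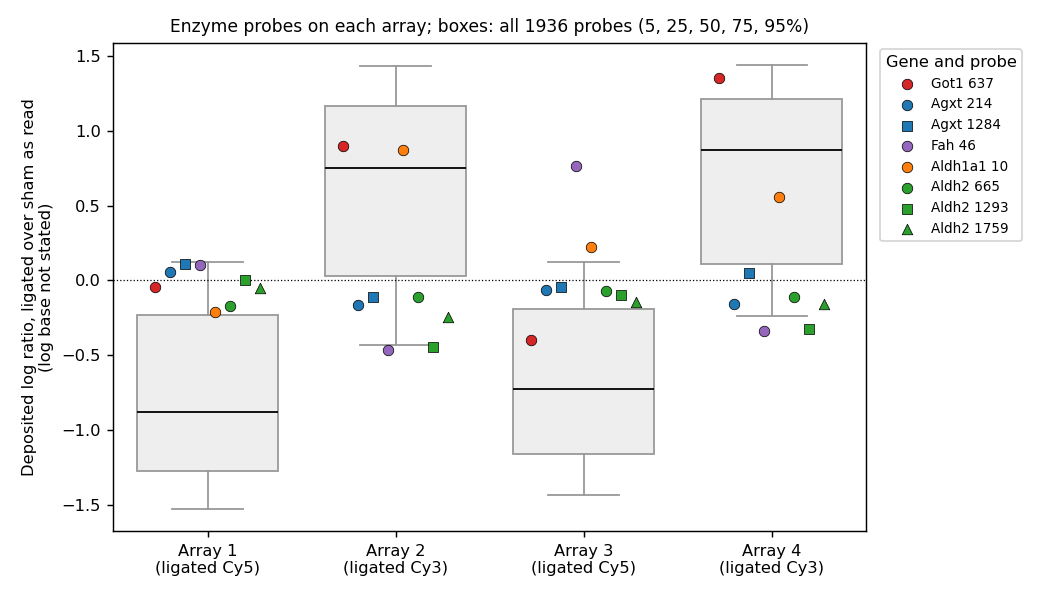
Deposited log ratios (vertical axis, base not stated) of the 8 member probes as points on arrays 1 to 4, with grey boxes for all 1936 probes (median, quartiles, and whiskers at the 5th and 95th percentiles). The boxes change sides of 0 with the dye, Got1 moves with them, and the Aldh2 and Agxt points stay between -0.44 and 0.11 on every array.

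Agxt encodes the alanine-glyoxylate aminotransferase, which removes glyoxylate before it becomes oxalate. Probe 214 had deposited values of 0.05, -0.16, -0.06 and -0.15, and probe 1284 had 0.11, -0.11, -0.04 and 0.05. Neither probe kept 1 sign on all arrays. Estimates were -0.09 ± 0.08 and 0.00 ± 0.08 (limma adjusted p = 0.864 and 0.991). The dye-balanced means were on both sides of 0, from -0.18 to 0.01 at probe 214 and from -0.09 to 0.08 at probe 1284. The probes differed from each other by at most 0.21 on an array.

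Fah encodes fumarylacetoacetate hydrolase, the last enzyme of tyrosine breakdown. Its deposited values were 0.11, -0.46, 0.76 and -0.34, above 0 on both Cy5-ligated arrays and below 0 on both Cy3-ligated arrays. This is the reverse of the array medians. The estimate was 0.01 ± 0.09 (limma adjusted p = 0.991). Arrays 1 and 3 differed by 0.66 at this probe, and its residual SD of 0.25 was exceeded by 9.35% of probes. Many other probes of its block were also higher on array 3 than on array 1, so the gap is not particular to Fah. Gpx1 had 0.24 on array 1 and 0.70 on array 3, and Hdgfl3 had 0.26 and 1.09. Aldh9a1, of the same block, went the other way (0.05 and -0.32). The dye-balanced means were -0.12 and -0.11 in the pairs with array 1 and 0.14 in both pairs with array 3, so the sign followed the Cy5-ligated array used.

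**Figure D2:**
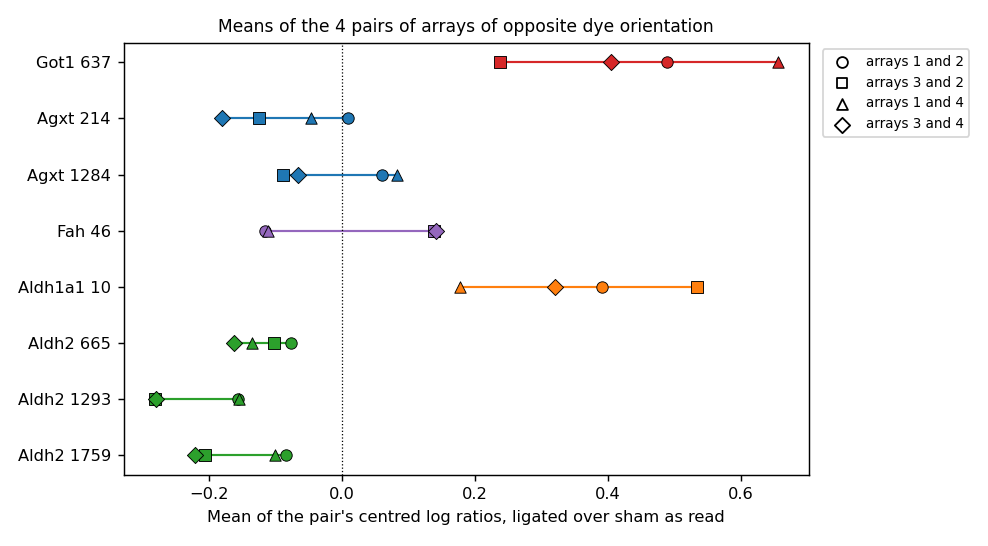
Means of the centred log ratios of each of the 4 pairs of arrays with opposite dye orientation (horizontal axis), 1 line per member probe, with symbols for the pair. Got1 and Aldh1a1 lie above 0 in all pairs, the 3 Aldh2 probes lie below 0 in all pairs, and Agxt and Fah cross 0.

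The members also differed in how far they followed the dye. The dye contrast is the mean of the Cy5-ligated arrays minus that of the Cy3-ligated arrays, divided by 2. On the deposited scale its median over all probes was -0.81. It was -0.67 for Got1 and -0.35 for Aldh1a1. At the 3 Aldh2 probes it was -0.01, 0.17 and 0.05, and at the Agxt probes 0.08 and 0.03. For Fah it was 0.42, and 0.620% of all probes had a higher one. Both Agxt probes and Aldh2 probes 665 and 1759 had all 4 deposited values within 0.25 of 0, as did 225 of the 1936 probes (11.6%). Among those 225 probes 155 had an operation estimate below 0 (68.9%), and their median estimate was -0.02. The 342 probes with a deposited dye contrast above 0 included 5 member probes, and 77.8% of the 342 had an estimate below 0. Estimates below 0 were also common over all 1936 probes. Counted from the lowest, Agxt probe 1284 at -0.0032 ranked 1144 and Fah at 0.013 ranked 1272, so 0 lay between these ranks. Over all 1936 probes the dye contrast and the operation estimate had a Pearson's r of -0.18 and a Spearman's rho of -0.17. These describe probes that share 4 arrays. The part of the dye in the members' estimates was not tested beyond the fits given here.

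**Figure D3:**
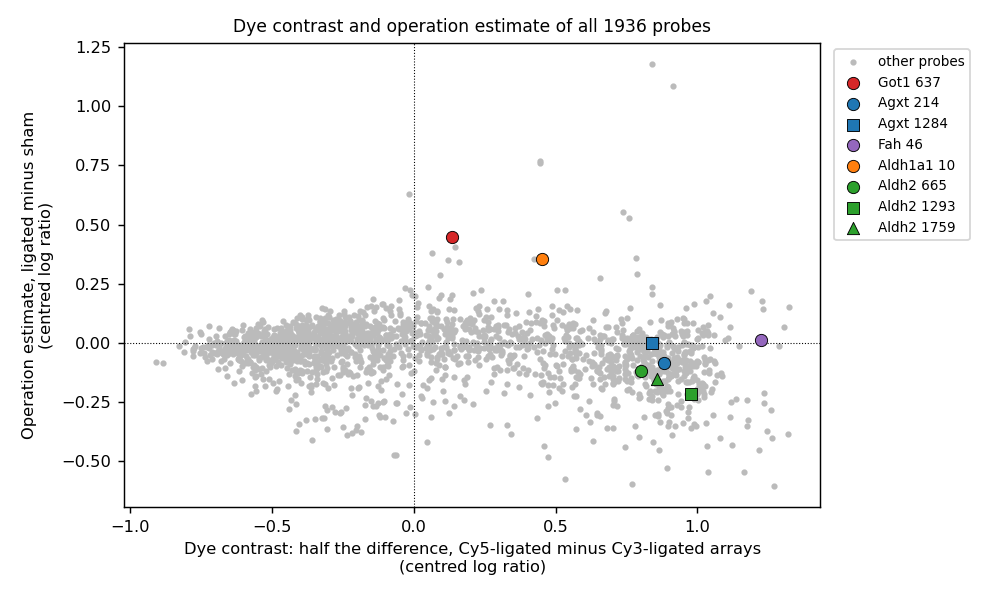
Operation estimate (vertical axis) against dye contrast (horizontal axis), both in centred log ratio, for all 1936 probes in grey and the member probes in colour. Got1 and Aldh1a1 lie at 0.45 and 0.36 above most probes near them, Aldh2 and Agxt lie among the probes at high dye contrast, and Fah lies near its right end.

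Likeness was measured as the root mean square difference over the 4 centred arrays, and the 2 nearest probes of other named genes were taken for each member. The estimate is the mean of the same 4 values, so it cannot differ between 2 probes by more than that difference. The estimates of the neighbours below, and largely whether they passed, thus follow from the choice and are no separate result. The nearest to Got1 were Igfbp4, which binds insulin-like growth factors (difference 0.19, estimate 0.29), and Mapk6, an atypical MAP kinase (0.27, estimate 0.41), both past the threshold. The nearest to Aldh1a1 was Fabp5, a fatty acid binding protein, at 0.11 with an estimate of 0.36, past the threshold. Nme1, a nucleoside diphosphate kinase, followed at 0.24, with an estimate of 0.21 that did not pass (limma adjusted p = 0.163). For Fah they were Slc38a3, a glutamine transporter, at probe 42 (0.10) and Car2, a carbonic anhydrase (0.13). Aldh2 probe 1759 was within 0.019 of another Slc38a3 probe and within 0.047 of Igf1. Probe 665 was nearest to Cyp27a1, a mitochondrial sterol hydroxylase, and Cd9, and probe 1293 to Car3 and Pcbp2, all within 0.033 to 0.046. The nearest to the Agxt probes were Ces1e, a carboxylesterase, Aurkaip1, Ybx1 and Gak, within 0.033 to 0.042. The estimates of these neighbours of Fah, Aldh2 and Agxt ran from -0.22 to 0.03, and none passed. Some neighbours lay in the same block of probe numbers as their member. These were Slc38a3 (probe 42) and Car2 (probe 94) for Fah (probe 46), and Igfbp4 (probe 626) for Got1 (probe 637). Car3 (probe 1266) likewise shared the block of Aldh2 probe 1293. Whether likeness reflects the block or the genes was not tested. The nearest probe thus lay at 0.19 from Got1 and 0.11 from Aldh1a1, and at 0.019 to 0.039 from the Aldh2 and Agxt probes. Probes of the same gene were not the nearest. The Agxt probes differed by 0.11 from each other and the Aldh2 probes by 0.10 to 0.22.

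Of 154 genes listed for amino acid, aldehyde and retinoid pathways 19 had a named probe, 30 probes in all. Of these probes 3 rose, 1 fell and 26 did not pass, with a median estimate of -0.05 beside -0.02 over all probes. Over all probes 0.930% were higher and 4.80% lower in that fit, many of the lower ones in the run of probe numbers from 243 to 484. Leaving out the 8 member probes, 1 of 22 rose and 1 fell. With the dye curve per block 3 of the 30 rose and 3 fell, where 3.51% of all probes were higher and 3.46% lower. As deposited 0 of the 30 passed in limma (7 at an unadjusted p under 0.05), where 0.155% of all probes passed. No gene of the urea cycle list or of the sulphur amino acid and one-carbon list had a probe with a single symbol.

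In the aldehyde and alcohol list of 9 probes 1 rose, Aldh1a1, and 1 fell, Maob, a mitochondrial monoamine oxidase whose products include aldehydes. Maob had deposited values of -0.20, -0.85, -0.32 and -0.02 and an estimate of -0.35 ± 0.09 (limma adjusted p = 0.00567). Array 2 was the lowest of these. Maob is probe 249, in the run of probe numbers from 243 where array 2 was low for many genes. Nearby, Scarb1 (probe 246) had -0.63, Gnrhr (probe 252) -0.92 and Mapk14 (probe 256) -0.96 on array 2, each past the threshold as lower. Folr2 (probe 248) had 0.13 on that array and did not pass. Whether the fall is particular to Maob was not tested. With the dye curve per block the Maob estimate was -0.04 ± 0.05 and no longer passed (limma adjusted p = 0.720). Other aldehyde dehydrogenases on the array were Aldh9a1, which oxidises aminoaldehydes, and Aldh3a2, the fatty aldehyde dehydrogenase. Aldh9a1 had -0.15 ± 0.09 and the Aldh3a2 probes 0.00 and -0.04, and none passed.

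Of 12 retinoid probes 2 rose and 0 fell, with a median of -0.06. Besides Aldh1a1 the one that rose was probe 582 of Rxrg, a retinoid X receptor. Its deposited values were 0.05, 0.44, 0.20 and 0.42, above 0 on all 4 arrays, as 0.981% of probes were. The estimate was 0.27 ± 0.08 (limma adjusted p = 0.0337). With the dye curve per block it was 0.28 ± 0.04 (limma adjusted p = 0.00148), and as deposited, without centring, it did not pass (0.28, limma adjusted p = 0.242). The other Rxrg probe, 1540, had -0.07 ± 0.08. The lowest of the list was Ttr, the carrier of thyroid hormone and of retinol binding protein, with -0.24 ± 0.08 (limma adjusted p = 0.0814). With the dye curve per block Ttr passed as lower (-0.17 ± 0.04, limma adjusted p = 0.0265), so that 2 retinoid probes rose and 1 fell.

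Of the 6 glyoxylate, serine and glycine probes none passed. The highest was a probe of Phgdh, the first enzyme of serine synthesis (0.03 ± 0.08), and the lowest a probe of Hao2, a peroxisomal hydroxyacid oxidase (-0.22 ± 0.08, limma adjusted p = 0.129). The other Hao2 probe had -0.01. Of the branched chain and lysine list 2 probes were measured, Bckdk (0.08 ± 0.08), the kinase of branched chain ketoacid dehydrogenase, and Gcdh (-0.02 ± 0.08), of lysine breakdown. Got1 was the single measured gene of the transamination list and Fah that of the tyrosine list.

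Of the other cell types, 1 of 4 probes of stellate cell and fibroblast markers rose, Col1a1 probe 1306 (0.34 ± 0.08, limma adjusted p = 0.00526), and the list ran from 0.00 to 0.34. With the dye curve per block probe 1306 also passed (0.36 ± 0.06, limma adjusted p = 0.00427), and as deposited it did not (0.34, limma adjusted p = 0.300). The other Col1a1 probe, 1183, had 0.10 ± 0.08 and did not pass (limma adjusted p = 0.812). None passed among 1 cholangiocyte probe (0.10), 2 neutrophil probes (0.02 and 0.15) and 3 endothelial probes (-0.18 to -0.05). No listed macrophage, lymphoid or red cell marker had a probe with a single symbol. The part of other cell types in the estimates of Got1 and Aldh1a1 was not tested.

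**Figure D4:**
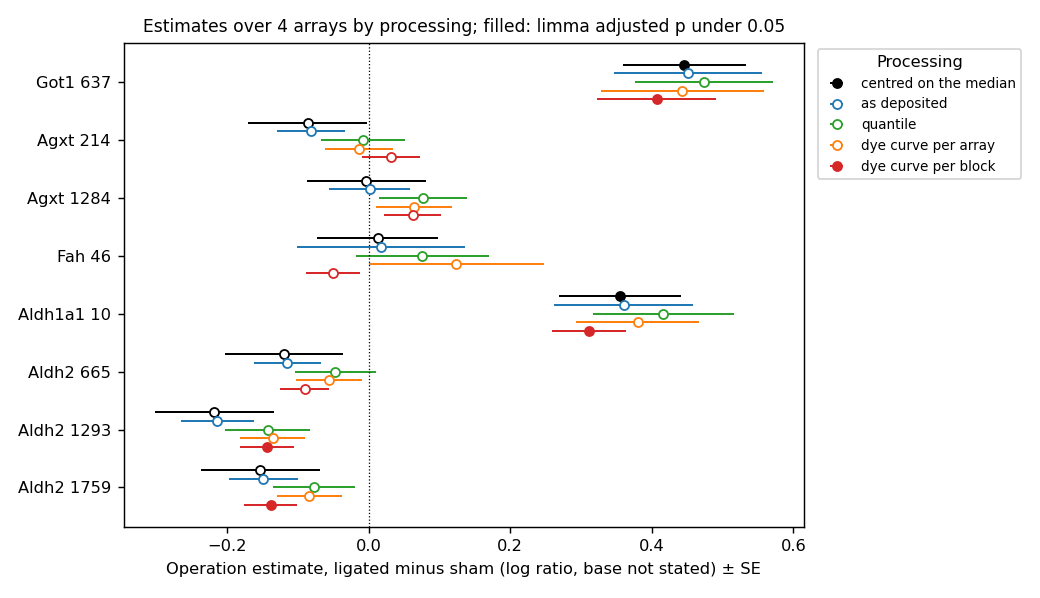
Operation estimates with SE over 4 arrays (horizontal axis, log ratio) for each member probe under 5 ways of processing. Filled points passed a limma adjusted p of 0.05: Got1 and Aldh1a1 with centring and with the dye curve per block, and Aldh2 probes 1293 and 1759 with that curve.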

How the data were processed

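The authors deposited 1 log ratio per probe for each of the 4 two-colour arrays. For the log base, the scanner, background correction and normalization nothing is given in the sources used here. Spot intensities were not used. Values were centred on each array's median and fitted in limma 3.58.1 (R 4.3.3) with operation and dye terms, with Benjamini-Hochberg adjustment over all 1936 probes and a threshold of 0.05. The fit has 2 residual degrees of freedom, to which limma's prior added 76.2, or 2.60 as deposited. The dye curve was a lowess of each array on the dye contrast, per array or in 16 equal blocks of consecutive probe numbers. The platform annotation named 1432 probes singly. Symbols were updated by gene ID through RefSeq's GRCr8 table, and 3 probes that did not match kept theirs. The calculation was tested on simulated data with independent noise and no block effect. That test therefore cannot show how the calls hold under the patterns by block seen here.

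The members, the gene lists and the dye curves were chosen with earlier results of these data known. The dye-balanced pairs and the limit of 0.25 were chosen after the values were seen. Named were all member probes, list probes that passed, each list's highest and lowest probe, the 2 nearest probes and Nr0b2. Aldh9a1, Aldh3a2, the second probes of Rxrg and Hao2 and the markers were named after their values were seen. The number of arrays limits the precision.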

Additional observations from a re-analysis of the deposited data

How the results depend on the processing

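Got1 and Aldh1a1 kept their sign under every alternative run, but several of these could not change it. The estimate is the same by construction without the dye term, with a robust prior and in the sign-flip test. Averaging probes to genes also leaves it as it is, since each of these genes has 1 probe. The reading as Cy5 over Cy3 gives the dye contrast, so its sign is not that of the operation. Got1 lost its call as deposited (0.45), with quantile normalization (0.47), with a dye curve per array (0.44), without the dye term (0.45) and when values were read as Cy5 over Cy3 (0.13). Aldh1a1 lost its call as deposited (0.36), with quantile normalization (0.42), with a dye curve per array (0.38) and without the dye term (0.36). In an exact sign-flip permutation test over the 4 arrays (two-sided), Got1 (0.45) had p = 0.125, the smallest that 4 arrays allow, and Aldh1a1 (0.36) had p = 0.375. Without replicate 1, 2, 3 or 4 in turn the estimates ran from 0.32 to 0.57 for Got1 and from 0.25 to 0.46 for Aldh1a1. Ranges of the same kind were -0.15 to -0.02 and -0.078 to 0.072 for Agxt probes 214 and 1284, -0.11 to 0.14 for Fah, and -0.15 to -0.09, -0.28 to -0.16 and -0.21 to -0.09 for Aldh2 probes 665, 1293 and 1759.

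The dye curve per block gave Aldh2 probes 1293 and 1759 a call (-0.14 each) and turned the sign of Agxt probe 214 (0.032), Agxt probe 1284 (0.062) and Fah (-0.050), none of these 3 past the threshold. Agxt probe 1284 also turned as deposited (0.0014), with quantile normalization (0.076) and with the dye curve per array (0.064). Read as Cy5 over Cy3, which exchanges the operation and dye terms, the values were 0.88 and 0.84 for the Agxt probes, 1.22 for Fah and 0.80, 0.98 and 0.86 for the Aldh2 probes, all past the threshold.

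The counts of 18 probes higher and 93 lower became 3 and 0 as deposited, 9 and 3 with quantile normalization, 7 and 0 with the dye curve per array, and 68 and 67 with the curve per block. They were 816 and 783 when read as Cy5 over Cy3, and 15 and 47 with equal scaling of arrays. With a robust prior they were 18 and 49, and with probes averaged to genes 12 and 28. Without the dye term limma called 0 and 0 (5 probes at an unadjusted p under 0.05). Leaving out 1 array gave 6 to 39 higher and 4 to 202 lower. A fit without an array has 1 residual degree of freedom and an SE shared by all probes. The causes of these changes were not tested. Background correction and a filter on dim probes could not be varied, since only ratios were used. Each ratio already pairs a ligated with a sham sample on the same array, and no further pairing of the arrays was made.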
